A study of Mus musculus with 2 samples.

Results

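General capillary cells are the endothelial cells that make up much of the thin-walled capillary network around the air spaces of the lung. They were picked here from single-cell RNA sequencing of whole mouse lung by the genes each cell held. Cells with at least 200 detected genes were kept if no more than 25% of their reads came from mitochondrial genes, and a gene counted as detected at 1 read. A kept cell was a member when it held at least 3 of the 8 genes Gpihbp1, Adgrl4, Sema3c, Plvap, Cd93, Clec14a, Kit and Tek. It could hold at most 1 of the 5 aerocyte genes Ednrb, Apln, Fibin, Chst1 and Car4, no read of Vwf, and at most 1 of the 4 lymphatic genes Mmrn1, Prox1, Flt4 and Reln. Of 32445 kept cells, 3998 were members: 2427 of 17227 in wild-type mice (WT) and 1571 of 15218 in CCR2KO mice, which lack the chemokine receptor CCR2 and are labelled CCR2-/-.

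All mice were C57BL/6, and all had silica, a mineral dust that injures and scars the lung, instilled into the trachea at 400 mg/kg, so both genotypes are silica-treated and no untreated lung enters any comparison here. Lungs were taken on days 3, 7 and 21. Cell suspensions were stained with hashtags, antibodies that carry a DNA barcode, and pooled: 9 hashtags (tags) in the WT library and 8 in the CCR2KO library. No source used here ties a tag to a day or to an animal. No comparison of days was made for that reason, and each p-value measures the spread between tagged suspensions. There was 1 pooled library per genotype, so genotype and library cannot be told apart in any comparison below. The labels name the mice CCR2-/- and give no promoter or cell type that limits the deletion.

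The lung has several kinds of blood vessel endothelium. General capillary cells hold Gpihbp1, which anchors lipoprotein lipase on the vessel wall, Plvap, which forms the diaphragms of small pores and vesicles, and Kit, the receptor for stem cell factor, and they are known to divide after injury. Aerocytes are large flat capillary cells at the gas-exchange surface, marked by Car4, a carbonic anhydrase, Ednrb, an endothelin receptor, and Apln, the ligand of the receptor Aplnr. Cells of larger vessels hold Vwf, the von Willebrand factor of blood clotting. CCR2 is the receptor that draws monocytes out of bone marrow and into inflamed tissue, and it is known from monocytes and some lymphocytes rather than from endothelium.

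Members differed in how many of the marker genes they held. Of the 3998 cells, 1362 held 3 of the 8 genes, 1099 held 4, 749 held 5, 484 held 6, 239 held 7 and 65 held all 8. Cd93, a surface receptor of vessel lining cells, was detected in 76.7% of members, Plvap in 69.9%, Gpihbp1 in 67.4% and Sema3c, a secreted guidance factor, in 64.3%. Adgrl4, an adhesion receptor, was detected in 46.1%, Clec14a, a surface lectin of endothelium, in 39.8%, Tek, the angiopoietin receptor, in 38.2% and Kit in 30.8%. Pairs of markers in the same cell ranged from Kit with Tek, in 12.1% of members, to Plvap with Cd93, in 52.8%. These shares chose the cells and are a description.

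Genes outside the rule were used to check the label. At least 3 of 8 pan-endothelial genes (Pecam1, Cdh5, Cldn5, Egfl7, Ramp2, Tie1, Emcn and Esam) were detected in 86.0% of members and in 19.3% of all other kept cells, among which the other endothelium is counted. Cdh5, the cadherin of endothelial junctions, had a read in 72.2% of members (median depth 20425 reads). In leukocytes, taken as the 7591 kept cells with at least 5 of 15 leukocyte genes and at most 1 pan-endothelial gene, it had a read in 7.15% (median depth 28634 reads). Cdh5 is itself 1 of the 8 pan-endothelial genes, so the choice of these leukocytes limited its share there. This contrast is a description and no check of the label. The rule also took in cells with a weaker endothelial profile: 561 members held 2 or fewer pan-endothelial genes, and 99 of them held none. The 5 mast cell genes in the tables, a check on Kit, summed to at most 19.8 CPM in any tag, where CPM is the reads of a gene scaled to all reads of the members of a tag, with totals adjusted by the TMM method.

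Members just inside the limit differed in depth from cells just outside it. The 1362 members with 3 marker genes had a median of 17478 reads and of 4 pan-endothelial genes. The 2182 kept cells with 2 marker genes that met every other limit had a median of 40231.5 reads and of 2 pan-endothelial genes. Of 6558 kept cells with 3 or more marker genes, 1809 held Vwf, 969 held more than 1 aerocyte gene and 49 more than 1 lymphatic gene, with some cells in more than one of these sets. As the rule set it, Vwf was at 0 in members and Ednrb was read in 2.33% of them. Car4 was still read in 24.5%, since a single aerocyte gene was allowed.

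**Figure D1:**
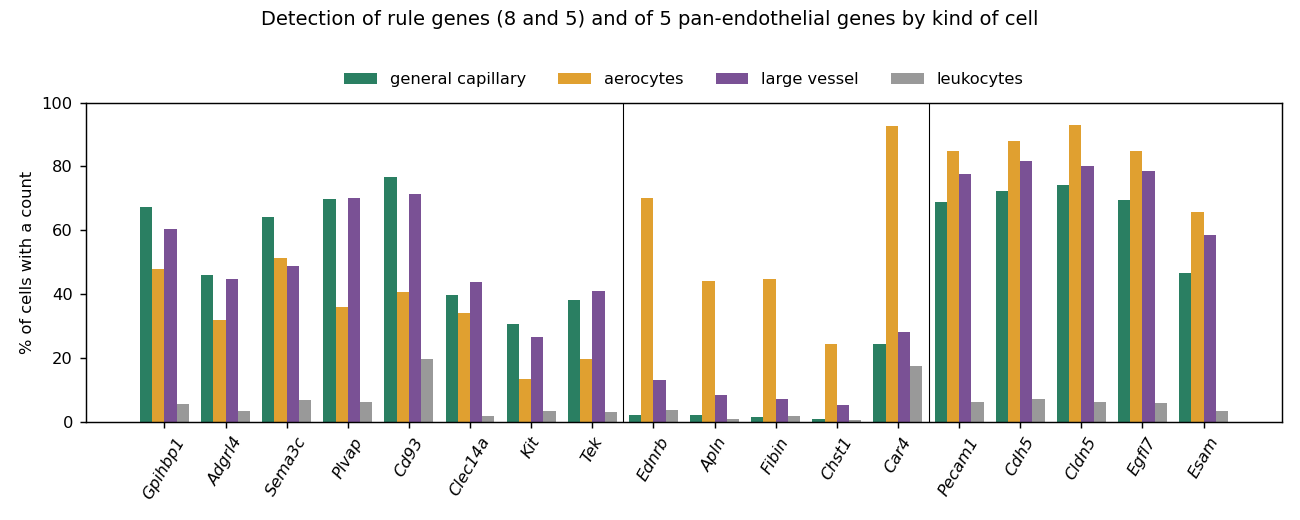
Share of cells with at least 1 read of each gene (y axis, percent) in general capillary cells, aerocytes, large vessel cells and leukocytes. The first block holds the 8 genes that chose the members, the second the 5 aerocyte genes and the third 5 pan-endothelial genes. Cd93 was read in 76.7% of members and Car4 in 92.7% of aerocytes. Each kind of cell was chosen with genes shown here, so the bars are a description.

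For comparison, 1405 aerocytes held at least 2 of the 5 aerocyte genes and 2082 large vessel cells held Vwf. Both sets also had to hold 3 pan-endothelial genes, which members did not. Differences between these kinds follow in part from how they were picked and are given as values with no test. Against aerocytes, members had more of Gja4, a connexin known from arterial endothelium (143 and 46.8 CPM), of Aplnr, the apelin receptor (53.9 and 18.2 CPM), of Sema3g, a semaphorin of endothelium (221 and 92.1 CPM), and of Npr3, the natriuretic peptide clearance receptor (118 and 50.0 CPM). Dll1, a Notch ligand (54.7 and 21.2 CPM), and Abcb1a, an efflux pump (87.4 and 34.6 CPM), lay the same way. Mki67, a gene of dividing cells, stood at 63.3 CPM in members and 26.8 CPM in aerocytes, and Ube2c, which acts in mitosis, at 82.5 and 26.2 CPM. These ratios rested on few cells: 43.9% of Mki67 reads and 58.6% of Ube2c reads lay in 1% of members, and Ube2c was read in 6.88% of members and 5.48% of aerocytes. Sema3g was higher in members in 17 of 17 tags, Gja4 in 16, Mki67 in 15 and Aplnr in 14. In large vessel cells Gja4 stood at 175 CPM, Sema3g at 234 CPM and Aplnr at 54.0 CPM, so these genes separated members from aerocytes only. The large vessel cells, chosen by Vwf, also held capillary genes: Plvap was read in 70.1% of them and Gpihbp1 in 60.5%. Genes known from larger vessels were more frequent than in members but read in few cells. Selp was read in 13.5% against 2.65% of members, Slc6a2 in 13.3% against 2.88% and Gja5 in 9.13% against 2.90%. How many of these cells are capillary cells with a Vwf read was not tested.

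Lower in members than in aerocytes in 17 of 17 tags were Emp2, a small membrane protein (312 and 1854 CPM), Kdr, the main receptor for VEGF-A (252 and 1292 CPM), and Tbx2, a T-box transcription factor (74.3 and 408 CPM). Nhlrc2 (91.3 and 523 CPM), Hyal1, a hyaluronidase (12.9 and 87.2 CPM), and Enho, which encodes a secreted peptide (16.4 and 127 CPM), were also lower in 17 of 17. Not every high ratio describes many cells. Ighg1, an immunoglobulin heavy chain, had 187 CPM in members and 3.46 CPM in aerocytes, but 100% of its reads lay in the 1% of members with the most reads of it. That share was 97.7% for Retnla, 91.8% for Cxcl17, 87.1% for Krt8 and 86.1% for Krt18, genes known from macrophages or epithelium.

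Between the genotypes the marker genes are a description, since they chose the cells. Cd93 had 799, 907 and 1092 CPM in the lowest, median and highest WT tag and 886, 1097 and 1341 CPM in CCR2KO. Plvap had 536, 843 and 1053 CPM in WT and 772, 1007 and 1278 CPM in CCR2KO. The ranges of both genes overlapped. Kit had 129 to 297 CPM in WT and 159 to 307.3 CPM in CCR2KO, with medians of 203 and 203 CPM, and Tek 159 to 245 and 181 to 319 CPM. All 8 markers were held by 2.14% of WT members and by 0.827% of CCR2KO members.

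Reads of other cell types were present in members, and at 1 read, the level the rule used, some were widespread. The epithelial gene Sftpc was read in 79.6% of members and 83.7% of leukocytes, and the leukocyte gene Lyz2 in 58.2% of members. Others were less frequent, such as Ptprc in 12.8% and Epcam in 3.53% of members. Between the genotypes, shares of members with more such reads and sums of the reads did not always point the same way, and neither was tested. Members with at least 5 reads of each of 2 or more leukocyte genes made up 14.8% ± 2.61 (SD, n = 9) of members per WT tag and 8.65% ± 2.06 (n = 8) per CCR2KO tag. Of 13 leukocyte genes tested between the genotypes none passed, 10 had a negative sign and the median log2 difference was -0.25. The 15 listed summed to 2642 to 6304 CPM in WT tags and to 2559 to 7064 CPM in CCR2KO tags. Medians of the leukocyte sums, 4562 CPM in WT and 3206 CPM in CCR2KO, lay the same way as the shares of cells. For 2 or more epithelial genes at that level, the share was 23.4% of WT members and 31.6% of CCR2KO members, and for mesenchymal genes 14.96% and 14.4%. The 13 epithelial genes summed to 3531 to 37557 CPM in WT tags and to 3315 to 13241 CPM in CCR2KO tags. Medians of the epithelial sums, 17381 and 9081 CPM, lay the other way from the shares of cells. By sign most of the 13 genes lay with the shares: 10 were positive and 3 negative, with a median log2 difference of 0.26. The 1 epithelial gene that passed was lower in CCR2KO, Scgb1a1, whose reads are described below. The part of reads of other cell types in the results below was not tested beyond the counts given without cells holding them.

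Members held fewer genes per cell in CCR2KO, and somewhat fewer reads. Members of a tag held between 8286111 and 11671257 reads in WT and between 4713929 and 7934330 in CCR2KO, over 230 to 320 member cells per WT tag and 153 to 244 per CCR2KO tag. The median member held 21100 reads and 1070 genes in WT, and 19086 reads and 847 genes in CCR2KO. Among members, 5 cell numbers occurred in both libraries, out of 342 among all tagged cells. With members thinned to 5000 reads, which left out 6 CCR2KO members below that depth, the lowest, median and highest tag means were 787, 821 and 938 detected genes in WT, and 675, 722 and 740 in CCR2KO. The groups did not overlap. The means were 842 ± 52.5 (SD, n = 9) and 716 ± 23.7 (n = 8), and the two-sided exact permutation test gave p = 8.22707e-05, the smallest that 24310 splits of the tags allow (adjusted p = 0.000247 over 3 single-value tests). The number of genes seen per cell thus differed between the libraries at equal depth. Whether it moved with the gene differences below was not tested.

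Ccr2, the deleted gene (chr9:124101950-124113557, plus strand, GRCm38), was checked first. Among members it had 5.78 CPM in the lowest, 29.4 in the median and 58.3 in the highest WT tag. In CCR2KO tags it had 0, 0.434 and 2.81 CPM, so the groups did not overlap and the labels were met (log2 difference -5.28, SE 0.77, edgeR adjusted p = 0.000974). It was read in 4.99% of WT members, 0.446% of CCR2KO members and 17.1% of leukocytes. Of the 121 WT members with a Ccr2 read, 67.8% held 2 or more leukocyte genes at 5 or more reads, against 11.8% of the 2306 without one.

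General capillary cells made up a smaller share of the CCR2KO library. They were 11.8%, 14.4% and 16.7% of kept cells in the lowest, median and highest WT tag, and 8.37%, 10.1% and 12.8% in CCR2KO. The ranges overlapped, with means of 14.1% ± 1.76 (SD, n = 9) and 10.4% ± 1.55 (n = 8). The difference of -3.76 percentage points passed the two-sided exact permutation test over tags (p = 0.00074, adjusted p = 0.00111). Every kept cell was also thinned to 5000 reads, which left out 0 WT cells and 177 CCR2KO cells. The shares were then 12.4% and 9.50% (exact permutation p = 0.00222). Thinning made reads per cell equal but not the number of genes seen, and the rule counts detected genes. Members thinned to 5000 reads held means of 842 genes in WT and 716 in CCR2KO. Members not thinned held means of 4.42 marker genes in WT and 4.19 in CCR2KO. The marker genes summed to medians of 4069 CPM in WT tags and 4831 CPM in CCR2KO tags. Whether the rule picked fewer CCR2KO cells for this reason was not tested. The suspensions had passed through digestion and a density gradient, from which a middle layer was taken, and a share of cells is a share after those steps.

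Other endothelium lay lower in CCR2KO as well. Aerocytes were 5.27% ± 0.928 of kept cells in WT tags and 3.33% ± 0.628 in CCR2KO tags, and large vessel cells 7.40% ± 3.38 and 5.52% ± 2.49; these differences were not tested. Among all general capillary, aerocyte and large vessel cells, the general capillary share was 53.6% ± 6.48 in WT (40.6% to 62.3%) and 54.7% ± 9.21 in CCR2KO (45.1% to 68.7%). The difference of 1.10 percentage points did not pass (two-sided exact permutation p = 0.773), and its sign was not the same with every choice of tags and cells. The tags overlapped over most of their range.

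**Figure D2:**
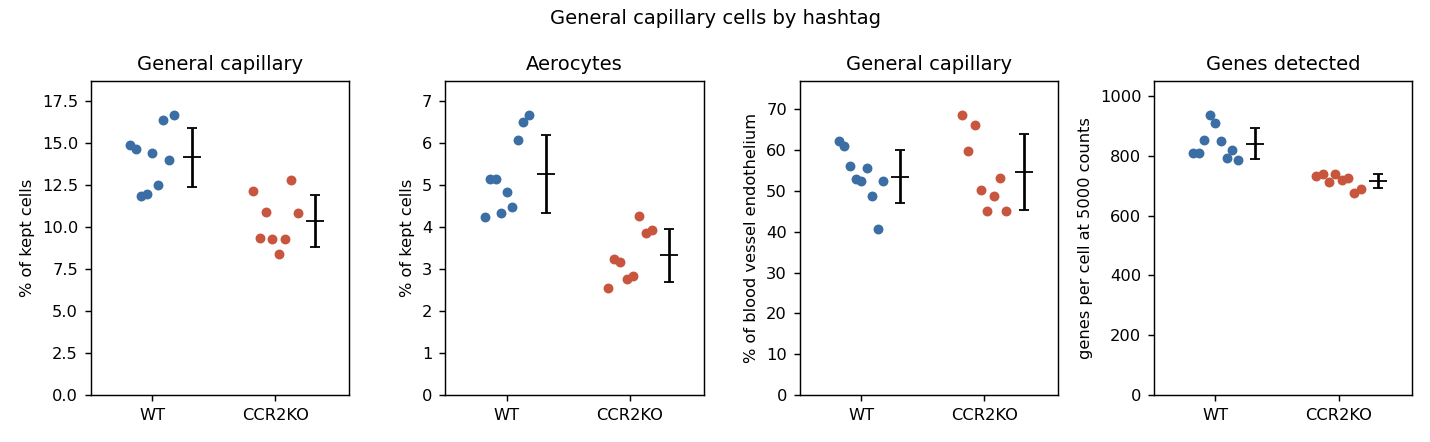
Each point is 1 tag (9 WT, 8 CCR2KO), and the bar beside the points is the mean ± SD. From left to right the y axes give general capillary cells in percent of kept cells, aerocytes in percent of kept cells, general capillary cells in percent of blood vessel endothelium, and detected genes per member cell at 5000 reads. CCR2KO tags lie between 8.37% and 12.8% in the first panel and between 675 and 740 genes in the last.

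Genotypes were then compared gene by gene, with reads summed over the members of each tag. Of 13188 genes tested, 80 passed an adjusted p of 0.05 in edgeR's quasi-likelihood test (0.607%). Of these, 28 were higher in CCR2KO (0.212% of the genes tested) and 52 were lower (0.394%). Every CCR2KO tag lay above every WT tag in 13 genes (0.0986%) and below it in 50 (0.379%). The median log2 difference over all genes was 0.02, and 651 genes (4.94%) were higher and 629 (4.77%) lower at an unadjusted p under 0.05. The number of calls depended on which member cells entered: 69 genes passed with only members holding 3 or more pan-endothelial genes, 22 without members holding 2 or more leukocyte genes at 5 or more reads, and 9 (3 higher, 6 lower) without cells of mixed markers. Cells of mixed markers held 2 or more leukocyte, epithelial or mesenchymal genes at 5 or more reads each, and were 37.8% of WT and 39.6% of CCR2KO members.

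Junction genes gave more calls than any other list. Of 18 genes for proteins that join endothelial cells or guard the barrier, all 18 were tested; 4 were higher in CCR2KO (S1pr1, Esam, Ctnnb1 and Cldn5) and none was lower. Of the 18, 17 had a positive sign, and the median log2 difference was 0.37. In all genes tested the median was 0.02, and 0.212% were called higher. In the other kept cells the same 18 genes had a median of 0.03, in aerocytes 0.23 and in large vessel cells 0.16. The other kept cells leave members out and mix cell types, so the share of remaining endothelium enters the first of these. That share lay lower in CCR2KO, and the 8 pan-endothelial genes had a median of -0.34 in the other kept cells. The contrast between members and the other kept cells was not tested. In members the 8 pan-endothelial genes had a median of 0.28, with 6 positive and 2 negative in sign. Of these 8, 2 were called higher, Esam and Cldn5, which are also in the junction list. Whether junction genes rose beyond endothelial genes in general was not tested. Members with leukocyte reads were fewer in CCR2KO, as given above: without them the median was 0.23 and 1 of the 18 passed, and without cells of mixed markers it was 0.26 and none passed.

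S1pr1 encodes the receptor for sphingosine 1-phosphate, a lipid carried in plasma that tightens endothelial junctions (chr3:115710433-115715072, minus strand, GRCm38). It had 444, 530 and 589 CPM in the lowest, median and highest WT tag, and 672, 789 and 921 CPM in CCR2KO. Every CCR2KO tag lay above every WT tag. The log2 difference was 0.62 (SE 0.08, edgeR adjusted p = 0.00022). It was read in 59.4% of WT and 62.6% of CCR2KO members and in 11.9% of leukocytes. In all other kept cells, a mix of cell types with a lower share of endothelium in CCR2KO, its log2 difference was -0.03. In aerocytes it was 0.57 and in large vessel cells 0.43. It was called in each edgeR fit that left out a tag. It passed without members holding leukocyte reads (log2 0.49, edgeR adjusted p = 0.0281), but not without cells of mixed markers (log2 0.48, edgeR adjusted p = 0.0589).

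Esam is an adhesion molecule of the immunoglobulin family at endothelial contacts (chr9:37528078-37538319, plus strand). It had 325, 360 and 447 CPM in the lowest, median and highest WT tag and 410, 566 and 670 CPM in CCR2KO. Only the ends of the ranges overlapped (log2 difference 0.56, SE 0.11, edgeR adjusted p = 0.0142). Ctnnb1, beta-catenin, links cadherins to the cytoskeleton and also acts in Wnt signalling (chr9:120929216-120960507, plus strand). It had 294, 388 and 458 CPM in WT and 471, 548 and 620 CPM in CCR2KO, with no overlap (log2 difference 0.55, SE 0.10, edgeR adjusted p = 0.00696). Ctnnb1 was also higher in the other kept cells, by a log2 difference of 0.36 (edgeR adjusted p = 0.000373). Without members holding leukocyte reads the log2 differences were 0.42 for Esam and 0.47 for Ctnnb1, and neither passed (edgeR adjusted p = 0.146 and 0.135).

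Cldn5 forms the strands of endothelial tight junctions (chr16:18776847-18778262, plus strand). It had 910, 1046 and 1303 CPM in the lowest, median and highest WT tag and 1213, 1445 and 1657 CPM in CCR2KO, with a small overlap. The log2 difference was 0.40 (SE 0.09, edgeR adjusted p = 0.0411), and with single tags left out the call was kept in 5 of 17 fits (adjusted p from 0.0297 to 0.0963). The neighbouring junction genes Pecam1 (log2 0.25, edgeR adjusted p = 0.347) and Cdh5 (log2 0.34, edgeR adjusted p = 0.353) did not pass. Cdh5 stood at 604 to 1053 CPM in WT and at 709 to 1329.7 CPM in CCR2KO, so its tags overlapped widely. Gja1, a connexin, was the 1 gene of the list with a negative sign (log2 -0.05).

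Genes of other roles rose beside them. Mcam (CD146), an adhesion molecule of endothelium and pericytes, had 135, 229 and 268 CPM in the lowest, median and highest WT tag and 291, 429 and 522 CPM in CCR2KO, with no overlap (log2 0.93, SE 0.14, edgeR adjusted p = 0.00165). Its call was kept in 17 of 17 fits with a tag left out and in 10 of 11 other alternatives. Pim3, a kinase, went from a median of 118 to 199 CPM with no overlap (log2 0.77, edgeR adjusted p = 0.00484). Without members holding leukocyte reads the log2 difference of Pim3 was 0.79 and did not pass (edgeR adjusted p = 0.0696). Rapgef5, an activator of Rap and Ras proteins (log2 0.69), also had every CCR2KO tag above every WT tag. Gpr146, an orphan receptor (log2 1.02), and Hpcal1, a calcium sensor (log2 0.69), rose with overlapping tags. Without members holding leukocyte reads, Rapgef5 (log2 0.62, edgeR adjusted p = 0.114) and Hpcal1 (log2 0.62, edgeR adjusted p = 0.122) did not pass. Without cells of mixed markers Hpcal1 stood at a log2 difference of 0.49 (edgeR adjusted p = 0.854), and neither Rapgef5 (log2 0.61, edgeR adjusted p = 0.176) nor Gpr146 (log2 1.04, edgeR adjusted p = 0.236) passed.

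Acer2, a ceramidase of the Golgi that releases sphingosine, was the 1 gene of 17 of lipid handling that passed. It had 139, 179 and 279 CPM in the lowest, median and highest WT tag and 263, 286 and 357 CPM in CCR2KO (log2 0.66, SE 0.13, edgeR adjusted p = 0.0134), and WT tag 1 alone reached into the CCR2KO range. Without members holding leukocyte reads its log2 difference was 0.57 (edgeR adjusted p = 0.0682), and without cells of mixed markers 0.73 (edgeR adjusted p = 0.0589), so the call was lost in both. The median of that list was 0.05. Lpl, the lipase that Gpihbp1 anchors, stood at 272 to 609 CPM in WT and 276 to 892 CPM in CCR2KO (log2 0.48, edgeR adjusted p = 0.468), and Cd36, a fatty acid carrier, at 1360.3 to 1927 and 1371 to 2083 CPM (log2 0.12, edgeR adjusted p = 0.741). Gpihbp1 itself, a gene of the rule and so not tested, stood at 602 to 795 CPM in WT and 425 to 1069 CPM in CCR2KO.

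Epas1, which encodes the oxygen-regulated factor HIF-2alpha, was the 1 called gene of 23 endothelial transcription factors (chr17:86753700-86833410, plus strand). It had 1145, 1646 and 2027 CPM in the lowest, median and highest WT tag and 1908, 2199 and 3208 CPM in CCR2KO, with a small overlap (log2 0.48, SE 0.11, edgeR adjusted p = 0.0364). Its call was kept in 5 of 17 fits with a tag left out. The median of the list was 0.23, and 8 of its genes had a higher level at an unadjusted p under 0.05 with 1 lower, against 4.94% and 4.77% of all genes. Foxf1, a factor of lung vessel formation (log2 0.34, edgeR adjusted p = 0.307), and Gata2, which acts in endothelium and blood (log2 0.40, edgeR adjusted p = 0.197), did not pass. Of 26 genes of the BMP and TGF-beta pathway none passed, with a median of 0.25. Eng, a co-receptor for BMP9, stood at 288 to 504 CPM in WT and 453 to 763 CPM in CCR2KO (log2 0.51, edgeR adjusted p = 0.105), and Id1, a target of BMP signalling, at a median of 229.8 and 324 CPM (log2 0.50, edgeR adjusted p = 0.251).

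**Figure D3:**
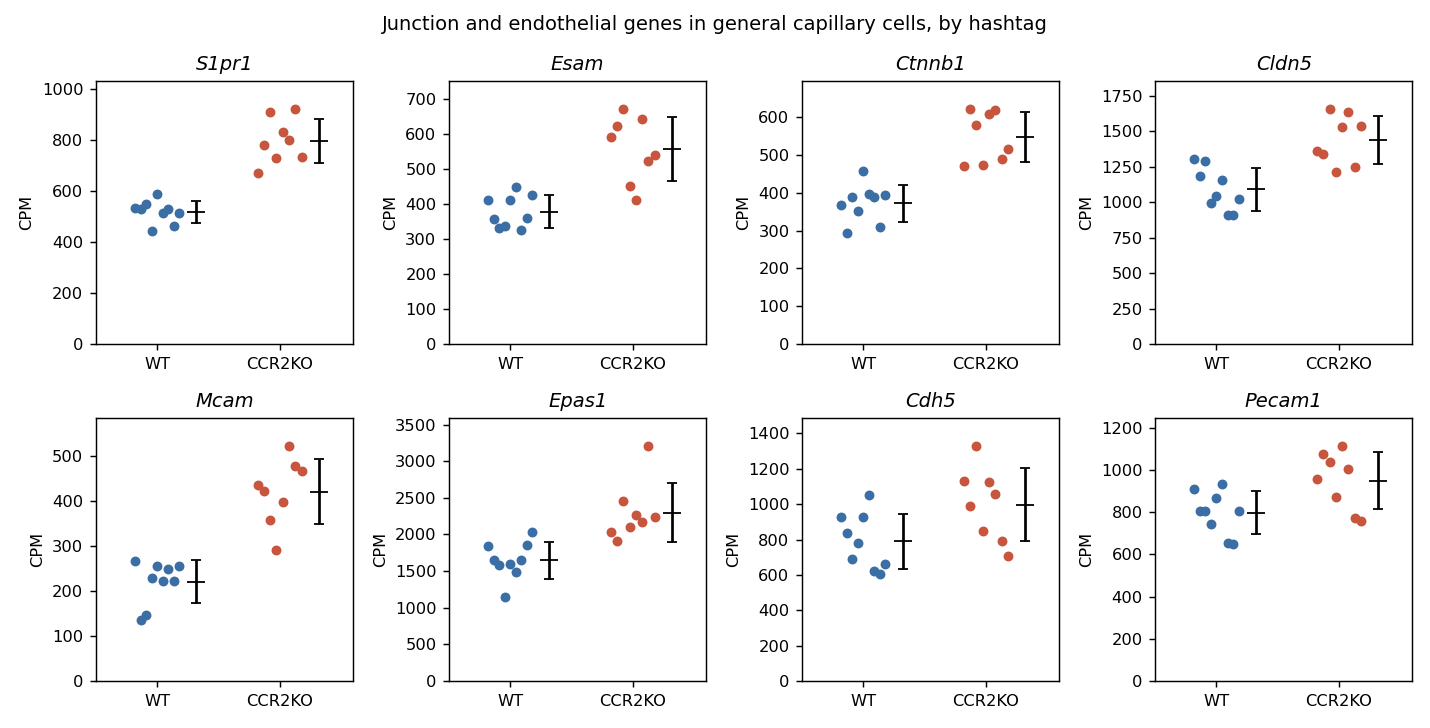
CPM of 8 endothelial genes in general capillary cells (y axes from 0), with 1 point per tag (9 WT, 8 CCR2KO) and the mean ± SD beside them. In S1pr1, Ctnnb1 and Mcam every CCR2KO tag lies above every WT tag, from 672 CPM against at most 589 CPM in S1pr1. Cdh5 and Pecam1 were not called, and their tags overlap.

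Other groups of endothelial genes moved less. In the VEGF and angiopoietin list (19 genes), the Notch list (15 tested of 16), the flow response list (9) and the list of further capillary genes (26) no gene passed, with medians of 0.08, 0.02, 0.04 and 0.15. Kdr stood at 160 to 324 CPM in WT and 185 to 341 CPM in CCR2KO (log2 0.08, edgeR adjusted p = 0.94), and Klf4, a flow-induced factor, at 739 to 1087 and 693 to 1177 CPM (log2 0.02, edgeR adjusted p = 0.985). Hes1, a Notch target, had 80.7 to 179 CPM in WT and 115 to 295 CPM in CCR2KO (log2 0.66, edgeR adjusted p = 0.0902). In the lists for vessel tone (16 genes), haemostasis (16 tested of 17), basement membrane (17) and leukocyte adhesion (10 tested of 12) none passed either, with medians from 0.09 to 0.19. Of the 10 adhesion genes tested, 6 had a positive sign and 4 a negative one, with a median of 0.14. Vcam1, which leukocytes bind, was among the 4, with 47.6 to 120 CPM in WT and 36.7 to 82.5 CPM in CCR2KO (log2 -0.52, edgeR adjusted p = 0.434). None of 22 cell cycle genes and none of 19 dissociation-induced genes passed, with medians of 0.12 and 0.02.

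Interferon-induced genes lay lower in CCR2KO members. Of 33 such genes, 2 passed, both lower (Ifi27l2a and Zbp1; 0.394% of all genes were called lower), and 31 had a negative sign. The median log2 difference was -0.67, and 14 of 33 were lower at an unadjusted p under 0.05, where 4.77% of all genes were. Outside the members the median lay at -0.69 in the other kept cells, -0.74 in aerocytes and -0.44 in large vessel cells. Without members holding leukocyte reads it was -0.69 with none called, and without cells of mixed markers -0.71 with none called, so the median stayed while single genes no longer passed.

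Ifi27l2a encodes a small interferon-induced membrane protein (chr12:103442167-103443680, minus strand). It had 344, 550 and 714 CPM in the lowest, median and highest WT tag and 73.5, 134 and 352 CPM in CCR2KO, with CCR2KO tag 3 reaching into the WT range. The log2 difference was -1.62 (SE 0.26, edgeR adjusted p = 0.00246). It was read in 29.95% of WT and 14.96% of CCR2KO members and in 51.0% of leukocytes. Of WT members with a read of it, 32.3% held 2 or more leukocyte genes at 5 or more reads, against 7.06% of those without. Without such members the log2 difference was -1.29 (edgeR adjusted p = 0.198), and without cells of mixed markers -0.67 (edgeR adjusted p = 0.983).

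Zbp1, a sensor of Z-form nucleic acids (chr2:173206612-173218923, minus strand), had 17.8, 53.8 and 76.5 CPM in the lowest, median and highest WT tag and 7.69, 14.5 and 44.7 CPM in CCR2KO (log2 -1.52, SE 0.35, edgeR adjusted p = 0.045). The tags overlapped, and the call was kept in 3 of 17 fits with a tag left out. Of WT members with a read of Zbp1, 41.0% held 2 or more leukocyte genes at 5 or more reads, against 11.7% of those without. Without such members its log2 difference was -1.24 (edgeR adjusted p = 0.325), and without cells of mixed markers -0.75 (edgeR adjusted p = 0.993). Isg15, a ubiquitin-like modifier, had 82.9, 175 and 256 CPM in WT and 18.1, 56.1 and 152 CPM in CCR2KO (log2 -1.32, edgeR adjusted p = 0.101). Ifit1, which binds foreign RNA, had 31.6, 53.2 and 153 CPM in WT and 5.85, 17.6 and 56.1 CPM in CCR2KO (log2 -1.62, edgeR adjusted p = 0.0934). Irf7, a factor that amplifies the interferon response, had a median of 118 CPM in WT and 25.1 CPM in CCR2KO (log2 -1.66, edgeR adjusted p = 0.142). Ifitm3, an antiviral membrane protein, had 2047 to 3299.8 CPM in WT and 1609 to 2716 CPM in CCR2KO (log2 -0.38, edgeR adjusted p = 0.13). The tags of each of these 4 genes overlapped, and none of the 4 passed.

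Counted per cell, the list covered a range within each genotype. At 5000 reads, a WT member held a median of 4 of the 33 genes and a CCR2KO member a median of 2. Members with 8 or more of them made up 2.34%, 13.4% and 22.2% of cells in the lowest, median and highest WT tag, and 0.658%, 1.58% and 6.31% in CCR2KO. The tag means ran from 2.93 to 5.48 genes in WT and from 2.14 to 3.76 in CCR2KO, and so overlapped. At that depth CCR2KO members also held fewer detected genes of any kind (means of 716 and 842 in WT). The counts of this paragraph were not adjusted for that. WT tags 8 and 9 were the lowest WT tags in Isg15, at 91.9 and 82.9 CPM, and CCR2KO tags 2 and 3 the highest of their genotype, at 152 and 116 CPM. A day of harvest for these tags is not given in the sources used here.

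Interferon acts through a short repeated promoter motif, the interferon-stimulated response element, whose core was searched here as GAAANNGAAA on both strands in the 250 bases before each RefSeq transcription start (GRCm38.p6). Overlapping matches were counted. A start was given for 22 of the 33 genes, and 13 of these 22 (59.1%) had a match, as had 3.46% of all 27025 genes with a window. Irf7 (log2 -1.66) and Ifi44 (log2 -1.11) were among the genes without one. None of the 10 junction genes with a window had one, Cldn5 among them. With a match in 3.46% of all genes, 10 genes are too few to read this as a trait of junction genes. A match describes letters in this window and shows neither binding nor a cause. The windows of Isg15, Ifit1 and Ifit3 are shown to let the repeats be seen. These 3 genes had negative log2 differences and none passed (Ifit3 log2 -1.09, edgeR adjusted p = 0.459). The window of Cldn5, which rose, is shown as one without the motif. All are written 5′ to 3′ on the gene's strand, and capitals mark the motif or, on the other strand, its reverse complement TTTCNNTTTC.
Isg15 (chr4:156200819-156201068, minus strand): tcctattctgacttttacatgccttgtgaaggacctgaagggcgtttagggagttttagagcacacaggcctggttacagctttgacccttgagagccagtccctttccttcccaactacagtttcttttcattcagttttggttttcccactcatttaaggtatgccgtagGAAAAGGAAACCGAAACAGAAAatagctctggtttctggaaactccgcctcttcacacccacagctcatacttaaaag
Ifit1 (chr19:34640639-34640888, plus strand): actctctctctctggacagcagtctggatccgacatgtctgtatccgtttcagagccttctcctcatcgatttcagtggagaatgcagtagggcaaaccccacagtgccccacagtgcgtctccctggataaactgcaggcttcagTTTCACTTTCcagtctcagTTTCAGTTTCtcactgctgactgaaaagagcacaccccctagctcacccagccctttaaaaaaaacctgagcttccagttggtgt
Ifit3 (chr19:34583279-34583528, plus strand): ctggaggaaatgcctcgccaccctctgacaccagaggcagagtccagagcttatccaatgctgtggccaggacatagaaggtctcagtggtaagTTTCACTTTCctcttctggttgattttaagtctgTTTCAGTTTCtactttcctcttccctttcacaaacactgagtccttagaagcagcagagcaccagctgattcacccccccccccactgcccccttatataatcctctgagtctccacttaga
Cldn5 (chr16:18776597-18776846, plus strand): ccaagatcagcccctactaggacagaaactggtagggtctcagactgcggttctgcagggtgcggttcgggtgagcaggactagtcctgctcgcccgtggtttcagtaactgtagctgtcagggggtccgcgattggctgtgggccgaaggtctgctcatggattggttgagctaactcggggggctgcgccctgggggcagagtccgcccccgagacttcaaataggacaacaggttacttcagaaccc
The 3 matches of Isg15 overlap and begin 78, 72 and 66 bases before the start, those of Ifit1 begin 104 and 85 bases before it, and those of Ifit3 156 and 122.

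**Figure D4:**
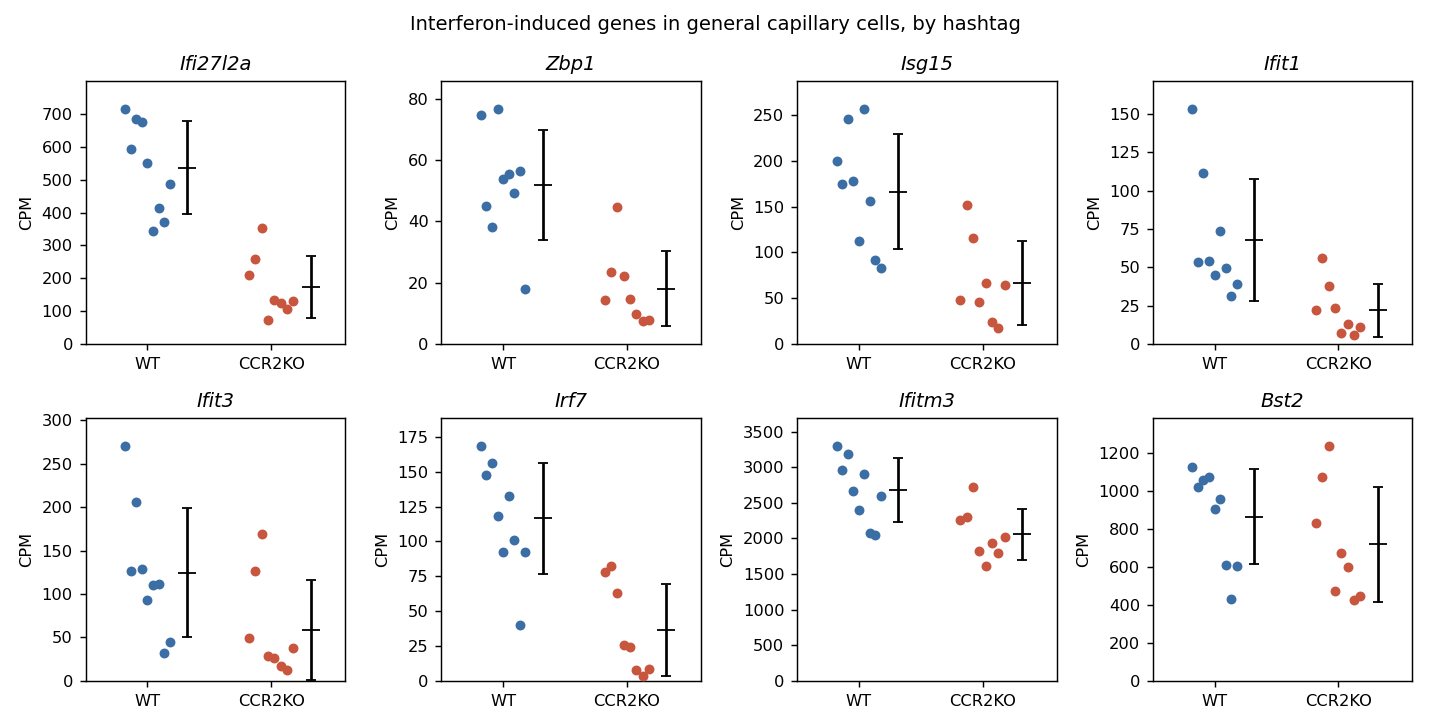
CPM of 8 interferon-induced genes in general capillary cells (y axes from 0), with 1 point per tag (9 WT, 8 CCR2KO) and the mean ± SD beside them. Ifi27l2a lies between 344 and 714 CPM in WT tags and between 73.5 and 352 CPM in CCR2KO tags, and Zbp1 was the only other gene of the panel that passed the test. The tags of the remaining genes overlap.

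Genes for signals to leukocytes did not pass, and the direction of their list depended on which cells entered. Of 16 tested of 18 chemokine and cytokine genes, 12 had a negative sign, the median log2 difference was -0.27, and none passed. Without cells of mixed markers the median was 0.16, with 7 of 12 tested genes positive in sign, and without members holding leukocyte reads -0.33, with 14 of 15 negative. Cxcl2, which draws neutrophils, had 376, 514 and 882 CPM in the lowest, median and highest WT tag and 114, 240 and 597 CPM in CCR2KO (log2 -0.93, edgeR adjusted p = 0.17). It was read in 36.7% and 23.6% of members and in 64.0% of leukocytes. Of WT members with a read of Cxcl2, 29.5% held 2 or more leukocyte genes at 5 or more reads, against 5.99% of those without. Il6 had 36.7, 180 and 585 CPM in WT and 47.5, 84.0 and 125 CPM in CCR2KO (log2 -1.34, edgeR adjusted p = 0.125), while the chemokine Cxcl10 had 12.9, 128 and 377 CPM and 9.26, 49.2 and 101 CPM (log2 -1.51, edgeR adjusted p = 0.203). Ackr3, a scavenger receptor for CXCL12, lay the other way, with 152 to 247 CPM in WT and 216 to 380 CPM in CCR2KO (log2 0.52, edgeR adjusted p = 0.0936). The antigen presentation lists held no called gene, with medians of -0.10 for 18 class I and -0.23 for 7 class II genes. Their medians in the other kept cells were -0.32 and -0.60. The class II median changed sign with the cells used: it was 0.46 without cells of mixed markers, 0.08 without members holding leukocyte reads, 0.02 without the cells of highest doublet score and 0.05 at 5000 reads per cell.

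Several of the lowest adjusted p-values among lower genes belonged to genes of the ribosome, and the named ones differed by a like size in the other kept cells. Of 76 ribosomal protein genes tested, a set taken by symbol after the values were seen, 9 were lower (0.394% of all genes were), none was higher, and 71 had a negative sign. Their median log2 difference was -0.13 in members and -0.16 in the other kept cells. Rn28s1, the 28S ribosomal RNA, had 1094, 1238 and 1343 CPM in the lowest, median and highest WT tag and 519, 642 and 709 CPM in CCR2KO (log2 -0.94, SE 0.07, edgeR adjusted p = 3.17e-07), with a log2 difference of -0.92 in the other kept cells. Rps29, a protein of the small ribosomal subunit, had 1422 to 1777 CPM in WT and 872 to 1115 CPM in CCR2KO (log2 -0.71, SE 0.06, edgeR adjusted p = 1.98e-06), and -0.80 in the other kept cells. Rn4.5s, a small noncoding RNA of rodents, differed by -1.98 in members and -2.09 in the other kept cells, Rpl35 by -0.65 and -0.70, Rps28 by -0.64 and -0.59, Rpl38 by -0.52 and -0.60, Rn45s by -0.53 and -0.56, Fau by -0.44 and -0.56, and Rn18s by -0.43 and -0.47. Cd99, a surface protein of endothelium and leukocytes, had 421 to 548 CPM in WT and 239 to 358 CPM in CCR2KO (log2 -0.75, edgeR adjusted p = 0.000322), and differed by -0.92 in the other kept cells. In these 10 genes no CCR2KO tag reached the WT range, and the size was like that in the rest of the library, where genotype and library cannot be told apart.

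Plac8, known from monocytes, had 390, 488 and 607 CPM in the lowest, median and highest WT tag and 108, 221 and 336 CPM in CCR2KO, with no overlap (log2 -1.15, SE 0.19, edgeR adjusted p = 0.00484). It was read in 40.5% of leukocytes. Of WT members with a read of Plac8, 27.9% held 2 or more leukocyte genes at 5 or more reads, against 9.41% of those without. Without such members its log2 difference was -0.58 (edgeR adjusted p = 0.512), and without cells of mixed markers 0.08 (edgeR adjusted p = 0.999). S1pr1 lay the other way: 12% of WT members with a read of it held leukocyte genes at that level, against 18.5% of those without.

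A pair of called genes rested on few cells. Igha, the heavy chain of immunoglobulin A made by plasma cells, had 0.812, 1.73 and 9.45 CPM in the lowest, median and highest WT tag and 19.4, 38.6 and 4670 CPM in CCR2KO (log2 8.96, SE 1.31, edgeR adjusted p = 0.000974), and 98.9% of its reads lay in 1% of members. It was read in 4.74% of WT and 28.8% of CCR2KO members, and its log2 difference in the other kept cells was 6.42. Scgb1a1, the secretoglobin of club cells in the airway, had 155, 7952 and 28847 CPM in WT tags and 257, 408 and 2242 CPM in CCR2KO (log2 -3.99, SE 0.83, edgeR adjusted p = 0.0249), with 97.6% of reads in 1% of members. It had a read in 71.0% of WT and 80.9% of CCR2KO members, so the share of cells went against the sum of reads, and without cells of mixed markers the log2 difference was 0.88. In the other kept cells it was 1.84. Neither value describes the typical member.

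**Figure D5:**
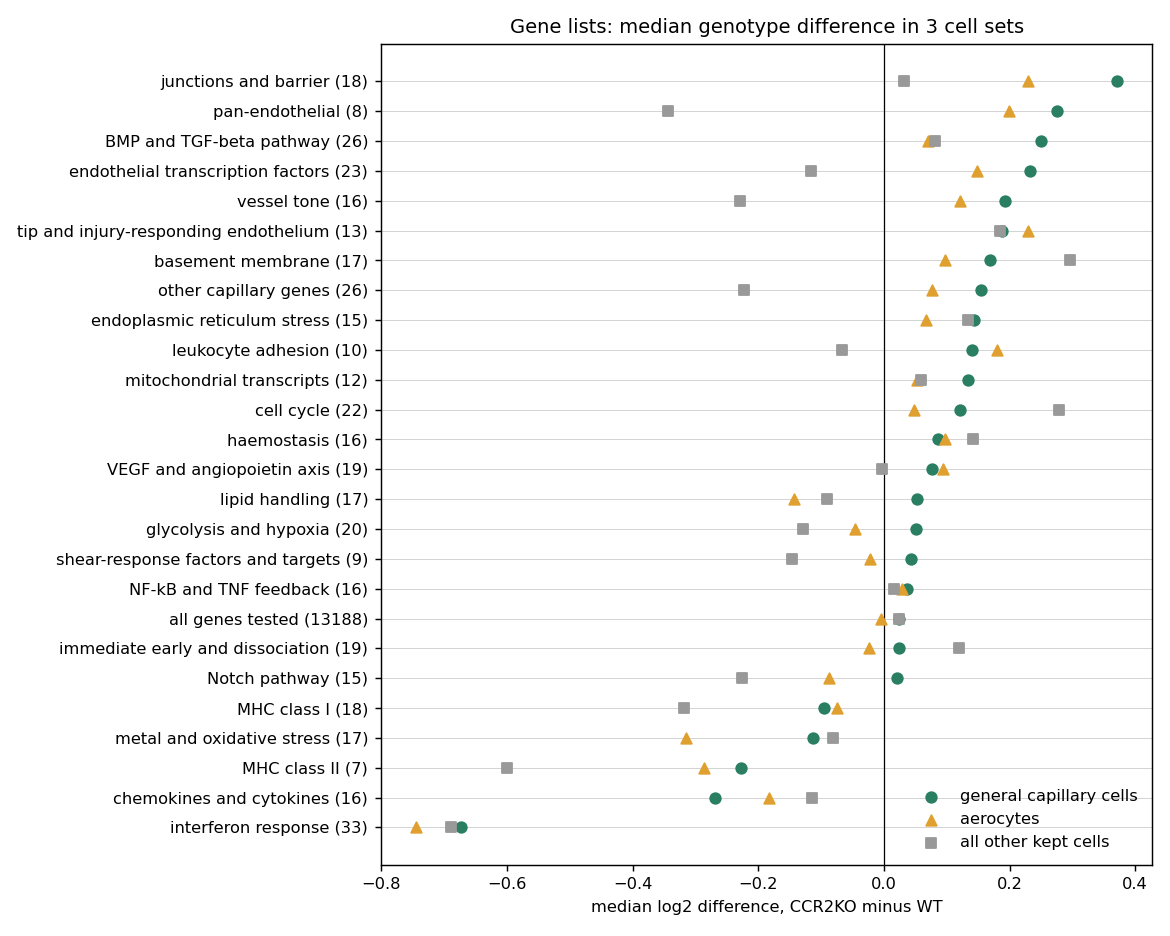
Median log2 difference between CCR2KO and WT (x axis) for each gene list, with the number of genes tested in general capillary cells in brackets. Circles are general capillary cells, triangles aerocytes and squares all other kept cells. Junction genes lie highest in general capillary cells, at 0.37 against 0.03 in the other kept cells, while interferon-induced genes lie at -0.67, -0.74 and -0.69. The other kept cells mix cell types, so their values also follow the share of endothelium among them, which lay lower in CCR2KO.

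Whether a genotype difference was particular to general capillary cells was tested against aerocytes of the same tags, with each tag as a block. Of 13760 genes none passed (0% of genes tested, edgeR quasi-likelihood test), and 645 had an unadjusted p under 0.05 (4.69%). The count was also 0 against large vessel cells, where 517 of 14055 genes had an unadjusted p under 0.05. Side by side, S1pr1 differed by 0.62 in members and 0.57 in aerocytes, Mcam by 0.93 and 0.89, Esam by 0.56 and 0.44, and Cldn5 by 0.40 and 0.25. Ctnnb1 differed by 0.55 and 0.11. With fewer aerocytes per tag, 51 to 125 against 153 to 320 members, the test does not show that the kinds respond alike.

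Dividing cells were a small part of the members. Members with 3 or more of 9 mitosis genes were 6.02% of WT cells (146 of 2427, 95% exact Clopper-Pearson interval 5.10% to 7.04%) and 4.20% of CCR2KO cells (66 of 1571, 3.26% to 5.31%); the intervals cover counting error only. Per tag the share ran from 3.17% to 13.3% in WT and from 1.93% to 5.95% in CCR2KO, so tags overlapped. The tag medians, 4.09% in WT and 4.84% in CCR2KO, lay the other way from the pooled shares. Mki67 was read in 7.499% of WT and 5.67% of CCR2KO members. Neither difference was tested.

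Tags of the same genotype also differed from each other. Over genes with a mean of at least 50 CPM whose reads were spread over cells (under 35% of reads in 1% of members), the median coefficient of variation between tags was 19.5% in WT (2767 genes) and 23.5% in CCR2KO (2747 genes). Cyp26b1, which breaks down retinoic acid, varied most in both genotypes: it had 12.55 to 470 CPM in WT, with tags 3 and 4 at 470 and 197 CPM, and 0.502 to 188 CPM in CCR2KO. In WT, Gpx3, an antioxidant enzyme found in plasma, stood at 255 to 1236 CPM and Fmo2, a lung monooxygenase, at 72.5 to 427 CPM, with tags 8 and 9 the highest in both. Npr3 had 31.2 to 178 CPM, with tag 8 lowest. In CCR2KO the interferon-induced Isg15, Phf11d and Trim30a were among the 15 most variable genes. Days and animals lie behind the tags in a way the sources used here do not give, so these ranges are given with no grouping of tags. The genes of this paragraph were chosen after their values were seen.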

How the data were processed

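The authors deposited 1 table of whole-number counts per gene and cell for each genotype, made on the BD Rhapsody platform, per the labels' protocols. Per the submitters' processing notes, the tools were cutadapt 2.10, Bowtie2 2.4.2 and R 3.6.3, with genome build GRCm38; their order is not given in the sources used here. How molecular identifiers were handled is not given in the sources used here, so counts are called reads. The WT table held 23966 genes and 17854 cells with a hashtag, while the CCR2KO data had 23426 genes and 15955 such cells, and 22975 genes were in both. Cells named as doublets by the authors (680 and 531) were left out, as were 2 columns that belong to no tag.

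Reads of members were summed per tag and tested with edgeR 4.0.16 (quasi-likelihood, TMM, filterByExpr, Benjamini-Hochberg adjustment over all tested genes outside the rule). Single values were tested with two-sided exact permutations over tags. Members and lists were chosen with earlier results of these data known. Named genes were the 12 with the smallest adjusted p in each direction among called genes read in at least 5% of members of the higher genotype, called list genes, up to 4 further genes of each list by mean CPM, the rule genes, and the 15 highest and 15 lowest ratios to aerocytes; some genes that met this rule are not reported here. Alternatives were another scaling, no filter, DESeq2 1.42.0, single tags left out, other cell filters, thinning and equal cell numbers. The fits on members with 3 or more pan-endothelial genes and on members without leukocyte reads were added after seeing the data, as was the 6% share of cells with the highest Scrublet score that stood in for doublets. The test was tested on simulated data: of 12822 genes, it recovered 29% of those changed 2-fold and 65% of those changed 4-fold, with 7 false calls. Gene positions are from GENCODE M21 (GRCm38). Other software was Python 3.11.15, scanpy 1.11.5, scipy 1.17.1 and R 4.3.3.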

Additional observations from a re-analysis of the deposited data

Results flagged for a closer look

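In 4 of 74 sets of tags checked, 1 tag stood apart from the others of its genotype by more than Dixon's 95% limit, where chance gives about 1 in 20. Epas1 had 3208 CPM in CCR2KO tag 7, with the next tag at 2449.8 CPM. Igha had 9.45 CPM in WT tag 6, with 2.21 CPM in the next WT tag, both under the lowest CCR2KO tag at 19.4 CPM. Scgb1a1 had 2242 CPM in CCR2KO tag 2, against 1136 CPM in the next. Zbp1 had 44.7 CPM in CCR2KO tag 3, with 23.4 CPM in the next, and tag 3 was also the highest CCR2KO tag for Ifi27l2a, at 352 CPM.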

How the results depend on the processing

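The number of genes called between the genotypes depended on the test and on which cells entered. Against 80 genes, 44 were called without the cells of highest Scrublet score, 23 in members with 4 or more of the 8 markers, 38 with 153 cells per tag, 22 without members holding leukocyte reads and 9 without cells of mixed markers, while DESeq2 called 224 (97 higher, 127 lower). With fewer cells fewer genes were tested, from 9621 to 12735 against 13188, and other causes were not tested. Of the 80 genes, 8 were among the 9 called without cells of mixed markers and 79 among the 224 of DESeq2. Another scaling gave 82 calls (80 of them among the 80 genes), no filter 60 (53), thinning 72 (35; 34 higher, 38 lower) and members with 3 or more pan-endothelial genes 69 (44). Single tags left out gave 56 to 97 calls, with 56 without WT tag 7 or tag 8. Scrublet's own threshold marked 415 cells in WT and 0 in CCR2KO and so had not worked; the 6% of cells with the highest score were left out in its place.

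The share of members among kept cells kept its sign and passed under each alternative, with differences from -4.10 to -3.44 percentage points with single tags left out. Their share of vessel endothelium turned negative with 4 or more markers (-0.61), without WT tag 8 (-0.52), without CCR2KO tag 1 (-0.90) and without CCR2KO tag 3 (-0.53), in a range from -0.90 to 2.47, and passed under none. Detected genes differed by -132 to -113 with single tags left out, by -74.2 at 2000 reads and by -165 at 10000 reads. The comparison with aerocytes gave 0 calls under each alternative.

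Of 728 alternative values for the 26 named or list-called genes, 609 kept their direction and passed, 117 kept the direction only and 2 reversed: Plac8 (0.078) and Scgb1a1 (0.88), both without cells of mixed markers. With single tags left out, Scgb1a1 lost its call without CCR2KO tags 1, 6 or 7. Cldn5 kept it only without WT tags 1 or 3 or CCR2KO tags 2, 4 or 7, Epas1 only without WT tags 1 or 9 or CCR2KO tags 1, 2 or 4, and Zbp1 only without WT tag 9 or CCR2KO tags 2 or 3.

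No source pairs same-numbered tags. Over 3486 genes their deviations correlated from -0.04 to 0.23, and 4 of 8 CCR2KO tags correlated best with their own number. With the number as a replicate block, 65 genes were called (20 higher, 45 lower; 40 shared), Acer2 was not (log2 0.63, edgeR adjusted p = 0.0614), and the shares differed by -3.44 (exact permutation p = 0.0078125) and by 0.95 percentage points (exact permutation p = 0.672).

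With 153 to 320 cells per tag, genes read in few cells had wide errors, and reads without stated molecular identifiers are not independent molecules. Intervals and floors cover counting error only.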
